A study of Homo sapiens with 33 samples.

Results

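The LNPEP tiles are synthetic oligonucleotides that carry the name of LNPEP, the mRNA of leucyl and cystinyl aminopeptidase, in a pool built to study RNA recovered with PUM2. They were chosen by name: every line whose tile name begins with LNPEP. This gave 158 of the 1599 tiles of the pool, numbered 1 to 158, and each tile was present with 22 barcodes, so that 3476 of the pool's 35178 oligonucleotides were LNPEP oligonucleotides. Of the 158 tiles, 156 had enough reads to be tested. LNPEP:64 had no read and LNPEP:65 had 1 read over all 6 libraries. The sequences of the tiles, their length, their overlap and their position in the mRNA were not used here, so tile numbers are names with an order and not coordinates.

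HEK293T cells, a human embryonic kidney line, were transfected with the pool, harvested after 48 hours and fixed with 0.1% formaldehyde for 10 minutes. They carried no added protein. The immunoprecipitate was made with an antibody against PUM2 and compared with Input, the reference fraction, with 3 libraries of each (A, B and C). No precipitation with another antibody is among the PUM2-pool groups, so recovery with PUM2 and recovery in any precipitate cannot be told apart.

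PUM2 is a Pumilio protein. Pumilio proteins read short sequences in RNA through a repeated domain in which each repeat contacts a base, and their sites are best known in the 3′ untranslated regions of mRNAs, where they recruit factors that shorten the poly(A) tail and lower translation. The protein made from LNPEP is a membrane-bound zinc peptidase, also called oxytocinase or IRAP. It cleaves peptide hormones such as oxytocin and vasopressin and travels with the glucose transporter GLUT4 in insulin-responsive vesicles.

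Input libraries held 29433144 to 35092298 reads and immunoprecipitate libraries 15986799 to 17727926. LNPEP tiles took 2171959 to 2457913 reads of an Input library and 1367042 to 1407800 of an immunoprecipitate library. Values per tile are given in CPM, counts scaled to library size with TMM factors, summed over the 22 barcodes.

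The anti-PUM2 immunoprecipitate held a subset of LNPEP tiles at far higher levels than Input, while the middle of the LNPEP distribution was near 0. Of 156 tested tiles, 32 (20.5%) rose and 10 (6.41%) fell, at an adjusted p under 0.05 in edgeR's quasi-likelihood test adjusted over the whole pool. Over all 1563 tested tiles the same calls took 14.1% and 4.16%. The median log2 fold change of LNPEP tiles was -0.04, beside -0.06 for all tested tiles. A middle near 0 depends on the TMM scaling. With library size as the only scaling these medians were -0.27 and -0.29. Changes of at least 4-fold made up 24 of the 32 rises, 15.4% of tested LNPEP tiles against 7.49% of all tested tiles. The immunoprecipitate libraries lay wholly above the Input libraries in 42 LNPEP tiles (26.9%, against 19.7% in the pool) and wholly below them in 34 (21.8%, against 20.6%).

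The mRNA as a whole gained a small share of the reads. LNPEP tiles made up 7.379%, 7.354% and 7.004% of the reads in Input A, B and C, and 8.07%, 8.55% and 7.85% in immunoprecipitate A, B and C. The groups did not overlap. The mean share was 7.25% ± 0.21 in Input and 8.16% ± 0.36 in the immunoprecipitate (SD, n = 3 each, exact two-sided permutation p = 0.1, the smallest that 3 against 3 can give). Within LNPEP the shift was large: the 32 tiles that rose took 10.4%, 10.3% and 10.9% of the LNPEP reads of Input A, B and C, and 34.6%, 36.3% and 35.3% of those of the immunoprecipitates. The other LNPEP tiles together held a smaller share of all reads in each immunoprecipitate library than in any Input library. Since the 32 tiles were picked for being higher in the same libraries, both shifts are descriptions and were not tested.

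LNPEP:110 had the most immunoprecipitate reads of the tiles that rose, together with a large change. It stood at 434, 415 and 488 CPM in Input A, B and C and at 4909, 4688 and 3523 CPM in immunoprecipitate A, B and C. No library of a group came near the other group. The tile was 9.81-fold higher (log2 fold change 3.29 ± 0.16, SE, n = 3 against 3, adjusted p = 2.49e-06 in edgeR). All 22 of its barcodes were higher, by 5.44-fold to 14.8-fold with a median of 10.0-fold, and all 22 were read in each of the 3 immunoprecipitate libraries. Its most abundant barcode held 7.90% of its immunoprecipitate reads and 8.25% of its Input reads, so no barcode carried the tile.

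Both tiles at 152 and 153 showed changes of like size. LNPEP:153 went from 175, 141 and 144 CPM in Input to 1639, 1485 and 1943 CPM (11.0-fold, log2 fold change 3.46 ± 0.17), and LNPEP:152 from 162, 161 and 142 CPM to 1314, 1275 and 1790 CPM (9.41-fold). At LNPEP:153, 19 of 20 barcodes with at least 30 reads over all 6 libraries were higher, and at LNPEP:152, 20 of 22. This minimum, used for barcode counts unless stated otherwise, is taken over both fractions, so in scarce tiles a barcode can reach it through its immunoprecipitate reads alone. The difference between these neighbours in log2 fold change, 3.46 ± 0.17 against 3.23 ± 0.18, was about the size of their standard errors and was not tested.

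LNPEP:127 rose from 60.7, 73.1 and 64.8 CPM to 876, 822 and 944 CPM, a 13.3-fold difference (log2 fold change 3.73 ± 0.18, adjusted p = 2.49e-06 in edgeR). The 3 libraries of each group were tightly grouped. Of its 21 barcodes with at least 30 reads 20 were higher, with folds of 1.997 to 93.8 and a median of 13.6, and the other had 48 Input reads and none in the immunoprecipitate. LNPEP:128, the next tile, rose 4.08-fold, from 76.1, 68.1 and 67.8 CPM to 318, 237 and 310 CPM. It began at about the same Input level as LNPEP:127 and ended well below it in the immunoprecipitate.

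Tiles with few Input reads gave the largest folds. LNPEP:94 stood at 3.21, 3.82 and 11.3 CPM in Input and at 512, 808 and 593 CPM in the immunoprecipitate (104-fold, log2 fold change 6.70 ± 0.60, adjusted p = 8.11e-05 in edgeR). It had 670 Input reads over 3 libraries. Of its 20 barcodes with at least 30 reads over both fractions, 10 had fewer than 30 Input reads and so depended on the immunoprecipitate to be counted. The 10 with at least 30 Input reads were all higher, as were the 19 with at least 10. The call held under each alternative setting tried, but the size depended on Input C: without it the log2 fold change was 7.50 (181-fold).

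LNPEP:95, its neighbour, rose from 12.9, 10.0 and 16.2 CPM to 339, 360 and 350 CPM (26.8-fold, log2 fold change 4.75 ± 0.32). Of its 14 barcodes with at least 30 Input reads, 12 were higher, and of its 16 with at least 10, 13. LNPEP:113 rose from 1.20, 1.18 and 5.58 CPM to 68.6, 141 and 204 CPM (51.7-fold, log2 fold change 5.69 ± 0.95), and rested on 295 Input reads. Without Input C its log2 fold change was 6.85 (115-fold). Only 2 of its barcodes had at least 30 Input reads, of which 1 was higher, and of the 11 with at least 10 Input reads 6 were. LNPEP:114 rose from 4.66, 9.17 and 14.9 CPM to 177, 266 and 285 CPM (25.3-fold, log2 fold change 4.66 ± 0.54). In each of these scarce tiles Input C was the highest Input library, and the groups stayed far apart.

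LNPEP:111 and LNPEP:91 completed the scarce tiles among the 10 highest, apart from LNPEP:123. LNPEP:111 rose from 22.3, 14.6 and 37.2 CPM to 382, 265 and 388 CPM (14.0-fold). LNPEP:91 rose from 21.0, 26.0 and 48.0 CPM to 365, 543 and 366 CPM (13.4-fold). Without Input A, B or C LNPEP:111 was 13.3-fold, 11.6-fold and 18.7-fold higher, and LNPEP:91 11.5-fold, 12.3-fold and 18.1-fold. Of their barcodes 19 of 20 and 17 of 21 were higher.

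LNPEP:123 had the second-highest log2 fold change (6.12, SE 1.495) on the weakest footing. Its Input libraries held 86 reads in all, and its immunoprecipitate libraries stood at 5.31, 33.7 and 131 CPM. It was the 1 tile of the 32 that passed the filter on low counts only through the immunoprecipitate, and no barcode was read in all 3 immunoprecipitate libraries. None of its barcodes had 30 Input reads, and of the 5 with at least 10 Input reads 2 were higher. Without Input A, B or C its adjusted p in edgeR was up to 0.116, and with a block by column letter it was 0.0736. Without immunoprecipitate C its log2 fold change was 4.62 (24.5-fold).

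Input levels of the 32 tiles that rose ran from 0.810 to 1199 CPM with a median of 154 CPM, and 12 of them were under 50 CPM. Those of the 114 tiles that passed in neither direction ran from 0.595 to 6736 CPM with a median of 276 CPM, with 11 under 50 CPM. In the immunoprecipitate the order turned: the medians were 749 CPM for the tiles that rose and 249 CPM for those that passed in neither direction. Since the tiles were sorted by the same libraries, this turn is a description and was not tested.

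The tiles that rose were gathered at the higher tile numbers. In consecutive blocks of 20 numbers, from 1 to 20 up to 141 to 158, the number that rose was 0, 1, 1, 1, 8, 11, 5 and 5. The median log2 fold change of the block was -0.02, -0.30, -0.21, -0.34, 0.64, 1.73, 0.22 and 0.16. From tile 90 on 29 of 69 tested tiles rose (42.0%), against 3 of 87 below it (3.45%). That border was set after the values were seen and gets no test. The calls that fell were spread over both stretches, 6 below tile 90 and 4 from it on.

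Input levels also differed along the numbers, so the blocks are not matched in depth. The first block had a median Input level of 680 CPM and no tile under 50 CPM. The block from 101 to 120, which held the most tiles that rose, had a median of 171 CPM and 6 tiles under 50 CPM. The block from 41 to 60, with 1 rise, had nearly the same median, 154 CPM, and 4 tiles under 50 CPM. The part of Input level in the pattern was not tested.

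The rises came mostly in short runs of consecutive numbers. They formed 16 runs, of which 12 held at least 2 tiles, and 28 of the 32 tiles lay in such runs. There were 9 pairs, 2 runs of 3 and 1 run of 4. Of all tiles that rose in the pool, 75.5% had a neighbouring number that also rose, beside 87.5% in LNPEP. Tiles that fell formed 1 pair and 8 single tiles. Over all tested LNPEP tiles, log2 fold changes of next numbers correlated weakly (Pearson r 0.22, 154 pairs). At distances of 2, 3 and 4 numbers r was 0.04, 0.35 and 0.23. Tiles without immunoprecipitate reads entered by their bound. Whether neighbouring tiles share sequence is not known here.

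The run of 4, tiles 94 to 97, held unequal members. After LNPEP:94 and LNPEP:95, LNPEP:96 rose only 1.93-fold, from 594, 547 and 533 CPM to 982, 960 and 1297 CPM. LNPEP:97 rose 5.79-fold, from 263, 296 and 267 CPM to 1546, 2138 and 1098 CPM, with all 22 barcodes higher. Just before the run, LNPEP:93 stood at 505, 539 and 523 CPM in Input and at 289, 396 and 363 CPM in the immunoprecipitate, and did not pass (log2 fold change -0.58 ± 0.18, adjusted p = 0.0628 in edgeR). As fitted with all libraries, LNPEP:93 and LNPEP:94 thus lay more than 7 log2 units apart. Their mean levels were 522 and 6.11 CPM in Input but 349 and 637 CPM in the immunoprecipitate. Without Input A the log2 fold change of LNPEP:94 was 6.39.

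The run of 3 at tiles 90 to 92 began with an abundant tile. LNPEP:90 rose 1.80-fold, from 673, 633 and 682 CPM to 1009, 1041 and 1523 CPM, and lost its call without Input B (adjusted p = 0.0597 in edgeR). LNPEP:92 rose 5.48-fold, from 32.7, 36.3 and 36.6 CPM to 184, 227 and 167 CPM, although only 12 of its 20 barcodes were higher. The values of LNPEP:91 between them are given above.

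LNPEP:109 opened the run of 3 that holds LNPEP:110, with 292, 318 and 227 CPM in Input and 1122, 1250 and 925 CPM in the immunoprecipitate (3.94-fold). LNPEP:112, between this run and the pair at 113 and 114, was at 84.7, 94.3 and 96.5 CPM in Input and 101, 98.6 and 159 CPM in the immunoprecipitate, and did not pass (log2 fold change 0.38 ± 0.37). Its libraries did not overlap, but only 8 of its 22 barcodes were higher. The 5 tiles from 110 to 114 had the highest mean log2 CPM difference of the 148 windows of 5 numbers, 3.64 (SD 0.25). Tiles 91 to 95 followed at 3.46 (SD 0.22). Each SD is over the immunoprecipitate libraries, taken against the Input mean, and leaves out the spread of the Input libraries.

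The pair at 102 and 103 was well covered. LNPEP:102 rose 5.96-fold, from 295, 328 and 277 CPM to 1729, 1993 and 1640 CPM, with all 22 barcodes higher. LNPEP:103 rose 8.46-fold, from 248, 238 and 219 CPM to 2008, 2396 and 1558 CPM, with 21 of 22 higher. LNPEP:104, next to it, was at 286, 288 and 272 CPM in Input and 177, 227 and 178 CPM in the immunoprecipitate and did not pass (log2 fold change -0.54 ± 0.22). The following pair rose again, LNPEP:105 by 4.50-fold (182, 159 and 154 CPM to 777, 677 and 776 CPM) and LNPEP:106 by 2.81-fold.

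Among the other pairs, LNPEP:119 and LNPEP:120 had close fitted values and unlike barcodes. LNPEP:119 rose 6.25-fold, from 39.5, 42.8 and 58.1 CPM to 276, 332 and 270 CPM, with 16 of 21 barcodes higher. LNPEP:120 rose 6.36-fold, from 29.9, 15.4 and 37.8 CPM to 121, 155 and 252 CPM, with 10 of 20 higher. A top barcode held 35.0% of the immunoprecipitate reads of LNPEP:120 and 11.8% of its Input reads.

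LNPEP:124, which followed LNPEP:123, rose 4.05-fold, from 215, 154 and 190 CPM to 796, 795 and 671 CPM, with all 21 of its barcodes higher. Unlike LNPEP:123 it kept its call without any 1 library. The last pair, LNPEP:156 and LNPEP:157, rose 9.33-fold and 8.14-fold from mean Input levels of 17.7 ± 11.8 and 12.2 ± 5.01 CPM (SD, n = 3). Without Input C the log2 fold change of LNPEP:156 was 3.91, against 3.22 with it. At LNPEP:157, 7 of 14 barcodes with at least 30 Input reads were higher. It lost its call without any 1 Input library or without immunoprecipitate B (adjusted p up to 0.148 in edgeR), with a block by column letter (adjusted p = 0.0620) and without its barcode of most reads (adjusted p = 0.0601).

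The 4 rises that had no called neighbour were LNPEP:62, LNPEP:99, LNPEP:130 and LNPEP:148. LNPEP:99 rose 7.92-fold, from 218, 207 and 211 CPM to 1487, 1950 and 1596 CPM (log2 fold change 2.98 ± 0.15), with all 21 barcodes higher. LNPEP:130 rose 6.27-fold, from 144, 156 and 139 CPM to 1060, 999 and 698 CPM, also with all 22 higher. Both changes were many times their standard errors. LNPEP:148 rose 2.75-fold.

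Below tile 90, rises were few and small. The abundant pair LNPEP:40 and LNPEP:41 had the most Input reads of the tiles that rose. LNPEP:40 went from 876, 859 and 920 CPM to 1982, 1841 and 1572 CPM (2.03-fold, log2 fold change 1.02 ± 0.12), and LNPEP:41 from 1203, 1348 and 1046 CPM to 2523, 3245 and 2322 CPM (2.25-fold, 1.17 ± 0.16). Of their barcodes 18 of 21 and 21 of 22 were higher. LNPEP:62 was less even, at 242, 212 and 182 CPM in Input and 425, 1035 and 344 CPM in the immunoprecipitate, where library B stood far above A and C (2.84-fold, log2 fold change 1.505 ± 0.41). Without immunoprecipitate B its log2 fold change was 0.86. Its call was lost without Input A, B or C (adjusted p up to 0.135 in edgeR).

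The most abundant LNPEP tile in both fractions did not change detectably. LNPEP:6 stood at 7740, 7929 and 4540 CPM in Input and at 9108, 8322 and 5924 CPM in the immunoprecipitate, with overlapping groups (log2 fold change 0.21 ± 0.24, adjusted p = 0.631 in edgeR). Its fitted value was -0.03 with library size as the only scaling. It took 7.18% to 11.5% of the LNPEP reads of an Input library and 7.09% to 10.4% of those of an immunoprecipitate library.

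At the threshold, LNPEP:35 (log2 fold change -0.62, adjusted p = 0.0440 in edgeR) and LNPEP:62 (adjusted p = 0.0363) lay just inside. Just outside were LNPEP:116 (1.28 ± 0.38, adjusted p = 0.0536) and LNPEP:117 (0.86 ± 0.26, adjusted p = 0.0604), which are neighbours. LNPEP:116 was at 273, 291 and 270 CPM in Input and at 541, 1128 and 362 CPM in the immunoprecipitate, so its groups did not overlap and library B again stood highest.

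Of the 10 tiles that fell, 3 had no read in any immunoprecipitate library. LNPEP:56 was at 10.6, 9.32 and 3.29 CPM in Input, LNPEP:101 at 4.60, 12.5 and 1.72 CPM, and LNPEP:32 at 7.18, 4.08 and 5.51 CPM. Against a floor of 3 counts over the immunoprecipitate group, which covers counting error only, they were at least 117-fold, 95.9-fold and 87.4-fold lower. The bound of LNPEP:101 rested on Input B, which held 424 of its Input reads: without that library it was 47.4-fold. These bounds do not cover the spread between immunoprecipitate libraries. LNPEP:57 and LNPEP:146 had mean Input levels of 12.1 and 12.5 CPM. They had 1162 and 1561 reads in 1 immunoprecipitate library and none in the others. LNPEP:56, LNPEP:101 and LNPEP:32 lost their calls without Input A, B or C and with a block by column letter. They also lost them at a minimum mean of 50 counts. All were thinly represented in Input too, with 11, 15 and 12 of their 22 barcodes without an Input read.

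The other falls were of moderate size. LNPEP:132 went from 161, 158 and 149 CPM to 48.5, 78.5 and 51.1 CPM (0.381 of Input, log2 fold change -1.39 ± 0.37), and LNPEP:140 from 336, 300 and 281 CPM to 167, 70.2 and 130 CPM (0.401 of Input, -1.32 ± 0.34). LNPEP:15 went from 411, 370 and 388 CPM to 171, 133 and 256 CPM (0.479 of Input, -1.06 ± 0.28). LNPEP:144 had the smallest adjusted p of the falls (0.00596 in edgeR), with 586, 576 and 596 CPM against 319, 351 and 321 CPM. The most abundant falls were LNPEP:35 (1255, 1268 and 1206 CPM against 952, 869 and 604 CPM), LNPEP:44 (801, 872 and 894 against 443, 500 and 635 CPM) and LNPEP:45 (850, 833 and 894 against 572, 580 and 381 CPM). In all 10 tiles the groups did not overlap.

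Most calls that fell were lost when an Input library was left out. Without Input A, B or C, 0, 1 and 1 LNPEP tiles fell in edgeR (0.767%, 0.958% and 1.21% of the pool did). At an unadjusted p under 0.05 in edgeR, 12, 11 and 13 LNPEP tiles fell, against 24 with all libraries. No pool counts are given at that threshold, so these counts do not set LNPEP apart from the pool. The fitted sizes moved little: LNPEP:132 was at -1.37, -1.38 and -1.42 without Input A, B or C, LNPEP:140 at -1.25, -1.33 and -1.38, and LNPEP:45 at -0.76, -0.77 and -0.72. LNPEP:101 was the 1 fall whose fitted value moved by more than 1.5 times. Without immunoprecipitate B 18 fell (7.2% of the pool). With library size as the only scaling, which moved the median of all tested tiles by -0.23, 23 fell and 32 rose (14.5% and 12.7% of the pool). By DESeq2 19 fell and 39 rose (10.6% and 18.6% of the pool). Of the 32 rises 28 kept their call without any 1 library, and of the 10 falls 0 did.

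The barcodes of a tile share its sequence and libraries and are not replicates, but they show how evenly a change was carried. Because the minimum of 30 reads over both fractions admitted barcodes of 14 of the 32 tiles that rose only with their immunoprecipitate reads, they were also counted by Input reads alone, a choice made after the data were seen. Of the barcodes with at least 30 Input reads, 47.4% to 100% were higher in the immunoprecipitate in the 31 tiles that had any (median 90.9%), and in 7 tiles all were. At a minimum of 10 Input reads the 32 tiles ranged from 40% to 100%, with the same median. In the 10 tiles that fell it was 0% to 19.05% at either minimum. In the 114 others the median was 35%, below 50% although their log2 fold changes centred near 0 (median -0.15).

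Many barcodes were lost from the immunoprecipitate. Of the 3476 LNPEP barcodes 12.0%, 11.3% and 11.9% had no read in Input A, B and C, against 59.0%, 54.9% and 55.2% in the immunoprecipitates (mean difference 44.6 percentage points, exact two-sided permutation p = 0.1 with n = 3 each, the smallest possible). Over the whole pool 46.8% to 51.5% had no immunoprecipitate read. Immunoprecipitate libraries were also less deep, and the part of depth in this loss was not tested. In the 32 tiles that rose, the barcodes left unread per immunoprecipitate library were 34.8% to 37.9%, while in the other LNPEP tiles they were 60.1% to 64.3%. In Input the order was the reverse, 14.3% to 15.6% against 10.3% to 11.3%. Since the 32 tiles were picked for being higher in the same libraries, both comparisons are descriptions and were not tested.

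Tests of single barcodes gave few rises and many falls. edgeR passed 74 of 2845 tested LNPEP barcodes as higher (2.60%, against 1.99% of all tested barcodes) and 619 as lower (21.8%, against 18.1%). All 74 lay on 16 of the 32 tiles that rose as sums: 17 on LNPEP:110, 9 each on LNPEP:103 and LNPEP:153, and 7 on LNPEP:94. On the 32 tiles 20 barcodes passed as lower.

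Set beside other RNAs of the pool, the share of LNPEP tiles that rose lay between that of NORAD and those of the mRNAs nearest to LNPEP in number of tiles. NORAD, a noncoding RNA rich in Pumilio sites, had 40.9% of 66 tested tiles higher and a median log2 fold change of 0.32. TAOK1, the mRNA of a stress-activated kinase, had 13.2% of 152 higher, and PRKDC, the mRNA of a DNA repair kinase, 6.94% of 173. Changes of at least 4-fold made up 25.8% of tested tiles in NORAD, 15.4% in LNPEP, 7.24% in TAOK1 and 0.578% in PRKDC. Median Input levels were 279, 247, 251 and 671 CPM in the same order. Tiles that fell took 6.41% in LNPEP, 1.52% in NORAD, 2.63% in TAOK1 and 2.89% in PRKDC. Of the tiles that rose, 87.5% in LNPEP had a neighbouring number that also rose, beside 85.2% in NORAD, 75% in TAOK1 and 33.3% in PRKDC. These shares are descriptions of 1 set of libraries, and no difference between RNAs was tested.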

How the data were processed

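The deposited table gives raw read counts per tile and barcode; that the values are counts is per the labels and the file headers, and the program that assigned reads is not named in them. Column names give a fraction and a letter (A, B or C) that no label ties to a replicate number, so columns were mapped to groups; 0 columns were left unmatched. Nothing says that the libraries of a group came from separate cultures, so the p-values reflect library spread that may be technical only. No source used here mentions molecular identifiers, so the floor of 3 counts covers counting error only. Library pairs within a group differed by more than sampling noise (chi-square per degree of freedom of 71.6 to 666).

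Counts were summed over barcodes. The whole pool was filtered (filterByExpr), scaled (TMM) and tested with edgeR 4.0.16 (quasi-likelihood F test, robust, R 4.3.3), with Benjamini-Hochberg adjustment over all tested tiles. The steps were tested on simulated tile counts with equal dispersion in both groups and no loss of barcodes. The real immunoprecipitate libraries differed more among themselves than Input libraries did, so the simulation does not cover their spread. SE was obtained as the size of the log2 fold change over the root of F. Windows used log2 CPM with a prior count of 2. Alternatives were DESeq2 1.42.0, RLE factors, scaling by library size only, tests without a filter or with a minimum mean of 50 counts, a block by letter, each library left out, tile sums without the top barcode, tests per barcode and a fold minimum. Named tiles were the 10 highest and 5 lowest calls, all members of runs, the 3 most abundant calls each way, the 2 tiles nearest the threshold on each side, untested tiles and the tile of most reads; LNPEP:93, LNPEP:98, LNPEP:99, LNPEP:104, LNPEP:112, LNPEP:130, LNPEP:144, LNPEP:148 and the 4 tiles with reads in 1 immunoprecipitate library were added after their values were seen. The members, lists and rules were chosen with earlier results of these data known.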

Additional observations from a re-analysis of the deposited data

How the results depend on the processing

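The count of LNPEP tiles that rose, 32, ran from 28 to 37 when 1 library was left out, while the pool's count, 220, ran from 179 to 264. Under the other settings that test tiles LNPEP ran from 32 to 39 and the pool from 198 to 292. At an absolute log2 fold change of at least 1, 30 LNPEP tiles remained, with no pool count given here. At 4-fold or more 24 remained (15.4% of tested LNPEP tiles), against 117 in the pool (7.49%). Single barcodes gave 74 (2.60%, against 1.99% of all tested barcodes). The count that fell, 10, was 23 with library size only, 19 by DESeq2, 619 as single barcodes, and 0 to 18 without 1 library. At an absolute log2 fold change of at least 1 it was 6, again with no pool count given here. In the pool 65 fell, 227 with library size only, 167 by DESeq2, and 12 to 146 without 1 library. With the replicate block by column letter 32 rose and 9 fell (215 and 79 in the pool). Of these LNPEP calls 30 and 6 were also made without the block. No shared deviation by letter was seen: deviations of same-letter libraries correlated at -0.04 to 0.01 over 1563 tiles. Of the 3 Input libraries 0 correlated best with their own letter. With so few libraries these values cannot show whether same-letter libraries came from the same cells. The window of tiles 110 to 114 (3.64) was 3.38 over 3 numbers and 2.31 over 9 with the same centre, which average other sets of tiles. LNPEP:6 turned to -0.026 with library size only, and without 1 library ran from -0.0096 (without Input C) to 0.414 (without immunoprecipitate C), and passed in none of these. The difference in the LNPEP read share kept its sign, at 0.716 to 1.06 percentage points without 1 library. The median share of barcodes higher in the tiles that rose, 94.4% by reads over both fractions, was 90.9% when barcodes were taken by at least 10 or at least 30 Input reads, an alternative chosen after the data were seen. The cause of the other shifts was not tested.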

Other observations

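In 4 tested LNPEP tiles all immunoprecipitate reads came from 1 library, and none of them passed. LNPEP:100 had 1091 reads in immunoprecipitate B and none in A or C, with 34, 148 and 148 reads in Input A, B and C. LNPEP:146 had 1561 reads in immunoprecipitate B and none in A or C, and LNPEP:57 had 1162 in A and none in B or C. In both, these reads lay on a single barcode, since 21 of 22 had none. LNPEP:66 had 231 reads in immunoprecipitate B only, against 874, 977 and 1302 in Input. The tile LNPEP:98, between LNPEP:97 and LNPEP:99, was at 441, 414 and 372 CPM in Input and at 347, 740 and 801 CPM in the immunoprecipitate, with overlapping groups.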
